A study of Mus musculus with 12 samples.

Results

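The late fallers are 251 of 42006 probes on a mouse array whose signal relative to a common reference, after the Sox2 supply of embryonic stem cells was shut off, was still near its starting level at 24 h and had dropped at least 2-fold by 72 and 96 h. They were chosen by their measured values. With the log2 ratio of the sample signal over the reference signal on each array, a member's mean over the 72 and 96 h arrays lay at least 1 below its mean at 0 h (this difference is called the late fall), its change at 24 h was less than 20% of the late fall, and its change at 12 h was above -0.7. Members also had a sample signal well above background on both 0 h arrays and a reference signal well above background on all 12 arrays, which 38670 probes met. Of these, 752 had a late fall of at least 2-fold, and the members were 33.4% of them.

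The cells were 2TS22C, 1 line of mouse embryonic stem cells with an inducible Sox2 knockout, grown in GMEM medium with LIF. All groups carried the knockout. Controls at 0 h had no tetracycline (Tc), and the other groups were harvested 3, 6, 12, 24, 48, 72 and 96 h after Tc was added. The 0, 6, 24 and 72 h groups had 2 arrays each, and the 3, 12, 48 and 96 h groups had 1. Sample titles give Tet(-) at 0 h and Tet(+) afterwards, while the description field gives Tet(-) throughout; the titles were followed. The sample RNA carried the dye Cy3 and a common reference pooled from 11 mouse cell lines carried Cy5 on every array. No label tells whether the arrays of a time stem from separate cultures, and the p-values below therefore reflect the spread of these samples alone, which may be technical. The 72 h arrays differed from each other in a share of the members, and the rule found 270 members without the first of them and 303 without the second.

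Sox2 is an HMG-box transcription factor that, with Oct3/4, keeps embryonic stem cells pluripotent, and LIF is the cytokine that supports their self-renewal in culture. In lines of this kind both chromosomal copies of Sox2 are disrupted and a transgene that Tc represses provides the protein, so adding Tc removes the remaining source. Cells that lose Sox2 leave the pluripotent state and take on trophectoderm-like features. The deposited files pair no probe with a gene, so the members are described by probe name and sequence, and the roles of the genes they read are not given here. Probe names of Sox2 itself were likewise not known, and the loss of its RNA was not checked here.

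Before the values, the sequences matter, because the members are not 251 separate readings. A total of 65 members (25.9%) shared a run of at least 20 letters with another member, directly or through the same promoter region, and fell into 16 sets of 15, 11, 9, 5 and 3 probes and 11 pairs. No pair of members overlapped on opposite strands. The other 186 members shared none with another member, so there would be at most 202 targets if each set read 1 transcript or 1 family. Some of the 186 were still connected to a set or to each other through probes that were no members. Z00060804-1, for example, shared runs with Z00060817-1, as did Z00061016-1 of a pair. With runs of 16 letters 72 members were linked.

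The set of 5 is shown first because it holds a pair of the 8 members with the deepest late falls. Each line is 1 probe of 60 bases, 5′ to 3′, as the array files give it. Capitals mark runs of at least 20 letters that another member of the same set also holds.

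Z00031084-1: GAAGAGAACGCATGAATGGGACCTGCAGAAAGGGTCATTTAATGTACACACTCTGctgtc
Z00073031-1: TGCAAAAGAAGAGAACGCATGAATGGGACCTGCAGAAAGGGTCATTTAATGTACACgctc
Z00073038-1: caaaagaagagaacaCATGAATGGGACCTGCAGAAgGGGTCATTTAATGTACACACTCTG
Z00073039-1: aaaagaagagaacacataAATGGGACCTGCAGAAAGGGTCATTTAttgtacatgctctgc
Z00073041-1: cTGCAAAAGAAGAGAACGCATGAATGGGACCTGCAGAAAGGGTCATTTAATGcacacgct

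The shared runs begin at different places in the 5 probes, and letters in lower case lie in no run shared within the set. From the set of 15, the 4 probes below show overlaps at 2 separate stretches: the upper pair shares one, the lower pair the other.

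Z00032641-1: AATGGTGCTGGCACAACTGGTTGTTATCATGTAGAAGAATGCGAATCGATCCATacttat
Z00060952-1: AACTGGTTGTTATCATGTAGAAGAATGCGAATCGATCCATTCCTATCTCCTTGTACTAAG
Z00060918-1: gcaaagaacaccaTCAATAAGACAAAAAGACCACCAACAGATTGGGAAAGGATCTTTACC
Z00060919-1: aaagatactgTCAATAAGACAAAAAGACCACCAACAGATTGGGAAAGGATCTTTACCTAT

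From the set of 11, a further 5 probes are shown because the replicate arrays of this set agreed most closely at 72 h among the larger sets, and because the last of them has a whole match in the promoter regions searched below.

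Z00060386-1: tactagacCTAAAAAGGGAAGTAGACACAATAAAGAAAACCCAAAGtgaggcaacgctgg
Z00061014-1: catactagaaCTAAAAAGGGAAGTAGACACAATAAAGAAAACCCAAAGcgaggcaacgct
Z00033952-1: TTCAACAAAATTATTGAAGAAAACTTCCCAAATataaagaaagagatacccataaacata
Z00072953-1: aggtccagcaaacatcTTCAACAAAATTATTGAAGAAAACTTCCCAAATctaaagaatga
Z00073737-1: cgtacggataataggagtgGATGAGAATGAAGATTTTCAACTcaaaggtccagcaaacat

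Letters of some sets lay in promoter regions on several chromosomes. RefSeq promoter regions of GRCm38.p6 (300 bases each, from 250 bases before to 50 after a gene's start) were searched on both strands for any run of 20 letters of a probe. Such a run lay in regions on at least 2 chromosomes for 23 members (9.16%), against 0.390% of the 38419 other probes that met the background conditions. For regions on at least 5 chromosomes the numbers were 13 members (5.18%) and 0.117%. The letters of Z00073737-1 lay in 12 regions on 8 chromosomes, and those of Z00060602-1, a probe of the set of 9, in 39 regions on 16 chromosomes. In all, 90 of 32815 regions held a run from some member. Whole matches of a probe include 3 of Z00060602-1, each on the same strand as the gene: chr5:76169295-76169354 by Gm33938, chr12:49452598-49452657 by Gm34381 and chr15:22715171-22715230 by Hnrnpa1l2-ps2, ending 76, 136 and 187 bases before the annotated starts. Another is chr12:77409904-77409963 for Z00073737-1, on the strand opposite to Fut8 and ending 178 bases before that gene's annotated start. A further one is chr4:129354034-129354093 for Z00010249-1, opposite to LOC108168979 and ending 184 bases before its start. A match describes the letters only; such probes may read RNA from several loci at once, and which loci contributed was not tested.

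Most members started from a high level. The 0 h arrays entered the rule, so this is a description with no test. Their median log2 ratio at 0 h was 1.87, and 239 of 251 (95.2%) lay above the reference, against a median of -0.04 and 46.5% among the other probes that met the background conditions. The Cy3 intensity had a median of 7716 at 0 h, against 1080, which describes how bright the spots were and not how much RNA each probe read. Members were richer in A (median 35.0% of letters against 26.7%) and had a GC content of 40.0% against 45.0%. Probe names that begin with Z00060 made up 56 members (22.3%) and 2.17% of the others.

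Up to 24 h the members' levels stayed close to those of the controls. The median log2 difference from 0 h after 3 h was -0.0031, after 6 h -0.0076, after 12 h -0.027 and after 24 h -0.11. For 48, 72 and 96 h the medians were -0.80, -1.19 and -1.44. The medians of all probes that met the background conditions stayed between -0.013 and 0.0087 at these times. The 0, 12, 24, 72 and 96 h arrays chose the members, so these values are a description of the choice. The late fall had a median of -1.27 (2.41-fold) and reached -2.94 (7.65-fold), and 10 members were at least 4-fold lower by it. The median share of the late fall was 13.4% on one 24 h array and 3.91% on the other. Within single members the 24 h arrays could lie further apart. Their gap exceeded 0.3 in 38 members (15.1%), against 4.67% of the probes that met the background conditions, and reached 0.96.

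The members' differences from 0 h ranged from -0.36 to 0.57 at 3 h, from -0.32 to 0.80 at 6 h, from -0.41 to 1.39 at 12 h and from -0.40 to 0.58 at 24 h. At 48 h the range was -1.97 to 0.18 with quartiles of -1.02 and -0.61, and at 96 h it was -3.28 to 0.16 with quartiles of -1.64 and -1.26. The ranges up to 24 h thus lay on both sides of the controls, while 246 of 251 members were 2-fold lower at 96 h.

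At 48 h most of the decline was under way. The median member had reached 58.9% of its late fall, with quartiles of 51.2% and 75.0%, and 68 members were already 2-fold below 0 h. Between 24 and 48 h the median step was -0.68, between 48 and 72 h -0.46 and between 72 and 96 h -0.21. Among the 3 steps the first was the steepest in 163 members, the second in 80 and the third in 8. A total of 215 members (85.7%) were lower at each successive time from 24 h on. The 24, 72 and 96 h arrays chose the members, so these steps and their order describe the choice and were not tested. The median share at 48 h was 57.3% when members with shared letters were left out.

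Whether the members were lower at 48 h was tested against the 3 and 6 h arrays, none of which chose the members. In limma, fitted on all 41754 probes with enough signal, 207 of 251 members (82.5%) were lower at 48 h at a Benjamini-Hochberg adjusted p under 0.05 and 0 were higher. Of all probes tested 8.72% were called lower and 12.2% higher. At an unadjusted p under 0.05, 236 members were lower and 0 higher. The median change was -0.77, against 0.01 over all probes. The single 48 h array lay below all 3 earlier arrays in 248 members (98.8%), against 33.7% of the probes that met the background conditions. Because 48 h has 1 array, the fit takes its spread from the times with 2 arrays. These are 0, 6, 24 and 72 h, and all but the 6 h arrays entered the rule.

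Arrays up to 12 h had their images analysed on one day and arrays from 24 h on another, per the file headers, so in this comparison time and day cannot be told apart. The step from 24 to 48 h, with a median of -0.68, lies within the second day. The 24 h arrays chose the members, so this step is a description and no test. The other 501 probes with a late fall of at least 2-fold, which had dropped by 24 h more than the rule allows, were called lower at 48 h in 488 cases (97.4%) with a median change of -1.25. The rule itself sets members apart from them at 24 h, so the difference was not tested.

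The deepest late fall belonged to Z00053216-1. Its log2 ratio was 3.72 and 4.11 at 0 h, 3.90 after 3 h, 3.82 and 4.03 after 6 h, 3.75 after 12 h, 3.70 and 3.90 after 24 h, 1.99 after 48 h, 1.41 and 0.90 after 72 h and 0.63 after 96 h. The 8 arrays up to 24 h stood together, and the 4 later arrays lay below all of them. At 48 h the probe was 3.79-fold lower than at 3 and 6 h (change -1.92, SE 0.24, limma adjusted p = 0.0031).

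Z00034201-1 and Z00010382-1 ended below the reference. Z00034201-1 measured 1.99 and 1.91 at 0 h, 2.05 after 3 h, 1.99 and 2.25 after 6 h, 2.07 after 12 h, 1.51 and 1.68 after 24 h, 0.13 after 48 h, -0.54 and -0.63 after 72 h and -1.03 after 96 h. Its 24 h arrays were the lowest before the drop, and at 48 h it was 3.89-fold lower than at 3 and 6 h (SE of the log2 change 0.12, limma adjusted p = 0.00032). For Z00010382-1 the values were 2.01 and 1.96 at 0 h, 1.96 after 3 h, 1.86 and 1.99 after 6 h, 2.28 after 12 h, 2.03 and 2.04 after 24 h, 0.49 after 48 h, -0.39 and -0.23 after 72 h and -0.61 after 96 h. Here the 24 h arrays did not lie below the controls, and the 48 h level was 2.74-fold lower than at 3 and 6 h (SE 0.09, limma adjusted p = 0.00028).

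Z00061071-1 made nearly the whole change in 1 step. It read 2.06 and 2.21 at 0 h, 1.93 after 3 h, 2.01 and 2.65 after 6 h, 2.20 after 12 h, 2.21 and 2.53 after 24 h, then 0.17 after 48 h, 0.14 and 0.08 after 72 h and -0.32 after 96 h. By 48 h it had covered 90.5% of its late fall (change against 3 and 6 h -1.96, SE 0.25, limma adjusted p = 0.0032). Z00071202-1 was slower, with 3.42 and 3.09 at 0 h, 3.61 after 3 h, 3.15 and 3.71 after 6 h, 3.61 after 12 h, 2.83 and 2.95 after 24 h, 2.54 after 48 h, 0.96 and 1.07 after 72 h and 0.56 after 96 h. It had covered 29.9% at 48 h, and its change against 3 and 6 h (-0.98, SE 0.23, limma adjusted p = 0.030) missed the threshold when a 24 or 72 h array was left out, when only the 6 h arrays served as the earlier level and with the replicate number as a block (adjusted p up to 0.057). Z00024676-1 read 4.77 and 4.71 at 0 h, 4.52 after 3 h, 4.63 and 4.65 after 6 h, 4.49 after 12 h, 4.29 and 4.39 after 24 h, 3.50 after 48 h, 2.63 and 2.53 after 72 h and 2.30 after 96 h. Its change at 48 h was -1.08 (SE 0.07, limma adjusted p = 0.00035).

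The remaining 2 of the 8 deepest, Z00031084-1 and Z00073031-1, belong to the set of 5 shown above. Z00031084-1 measured 4.39 and 4.47 at 0 h, 4.45 after 3 h, 4.32 and 4.73 after 6 h, 4.25 after 12 h, 4.06 and 3.99 after 24 h, 3.12 after 48 h, 2.45 and 1.76 after 72 h and 1.72 after 96 h. Its decline showed at 24 h already, where both arrays lay below every earlier one, but reached only 16.5% of the late fall. All 5 probes of the set were lower at 48 h than at 3 and 6 h (5 of 5 called, changes of -1.53 to -1.37), from levels at 0 h between 4.01 and 4.62. Z00073031-1 read 4.45 and 4.71 at 0 h, 4.67 after 3 h, 4.48 and 4.95 after 6 h, 4.60 after 12 h, 4.25 and 4.35 after 24 h, 3.16 after 48 h, 2.78 and 2.16 after 72 h and 1.99 after 96 h. The 4 arrays from 48 h on lay below all earlier ones, and the change at 48 h against 3 and 6 h was -1.53 (SE 0.28, limma adjusted p = 0.012).

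The edge of the rule ran through this family. A further 8 probes shared letters with the set on the same strand, and all 8 had late falls, from -2.65 to -1.37. Their levels at 0 h, 3.82 to 4.74, overlapped those of the members. At 48 h against 3 and 6 h 8 of 8 were called lower. They were no members because 7 of them had covered between 21.0% and 42.2% of the late fall at 24 h, above the 20% limit, while Z00073032-1 had covered 3.28% but did not meet the background conditions. The share at 24 h was 11.7% to 19.8% in the 5 members. Z00073038-1 (19.8%) and Z00073033-1 (21.0%) lay nearest to the limit on either side.

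Over all members, 34 probes that were no members shared runs of 20 letters with 35 members. Of these, 18 were on the same strand, and 12 had a late fall of at least 2-fold. Beside the set of 5, the sets with such probes had milder falls outside the rule: the 3 beside the set of 11, all on the opposite strand, lay between -0.87 and -0.62.

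The pace at 48 h differed widely among the 207 called members. The largest shares of the late fall were those of Z00022963-1 (120%), Z00027030-1 (111%) and Z00026346-1 (110%), which were lower at 48 h than on average at 72 and 96 h. For the last pair this order rested on the second 72 h array. Z00027030-1 read 0.15 after 48 h, -0.07 and 1.11 after 72 h and -0.12 after 96 h, and Z00026346-1 read 0.95, then 0.99 and 1.43, then 0.87. Without that array the later mean of each lay below its 48 h value, and its share was under 100%. Z00022963-1 read 0.32 and 0.28 at 0 h, 0.28 after 3 h, 0.62 and 0.60 after 6 h, 0.85 after 12 h, 0.31 and 0.43 after 24 h, -0.97 after 48 h, -0.84 and -0.77 after 72 h and -0.66 after 96 h, so that it stood highest at 12 h and lowest at 48 h. Its change at 48 h against 3 and 6 h was -1.41 (SE 0.07, limma adjusted p = 0.00016). Z00026346-1 changed by -1.63 (SE 0.25, limma adjusted p = 0.0062). Z00027030-1 changed by -1.95 (SE 0.50, limma adjusted p = 0.039), a call lost with the deposited table and when a 0 or 6 h array was left out (adjusted p up to 0.075).

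At the other end, Z00068240-1 had covered 6.86% of its late fall at 48 h, Z00031096-1 26.3% and Z00030889-1 26.5%. Z00068240-1 measured 1.64 and 1.69 at 0 h, 1.99 after 3 h, 1.77 and 1.83 after 6 h, 2.02 after 12 h, 1.47 and 1.58 after 24 h, 1.58 after 48 h, 0.54 and 0.60 after 72 h and 0.16 after 96 h. Its 48 h array stood level with the higher of its 24 h arrays and about 1 log2 unit above both 72 h arrays. The changes at 48 h against 3 and 6 h were small in these 3 probes: -0.31 (SE 0.07, limma adjusted p = 0.022), -0.51 (SE 0.13, limma adjusted p = 0.039) and -0.29 (SE 0.08, limma adjusted p = 0.043). Each of the 3 calls was lost under some alternatives: for Z00068240-1 without the 3 h array and with Cy3 alone (adjusted p up to 0.14), for Z00031096-1 with the deposited table or without a 0, 6 or 72 h array (up to 0.079), and for Z00030889-1 with normexp and no offset or without a 0, 6 or 24 h array (up to 0.077).

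A delay beyond 48 h was seen in a few members. The 48 h level was above the 0 h level in 4 members, and 13 had covered under 25% of the late fall. Z00031151-1 read 4.97 and 4.91 at 0 h, 4.90 after 3 h, 4.94 and 5.01 after 6 h, 4.89 after 12 h, 4.85 and 5.05 after 24 h, 4.97 after 48 h, 4.08 and 3.96 after 72 h and 3.38 after 96 h. Its ratio held through 48 h, and 3 later arrays lay below the earlier 9. The sample signal of this probe did not fall: its Cy3 intensity was 146985 and 144213 at 0 h, 269209 after 48 h, 376041 and 347243 after 72 h and 268344 after 96 h. From 0 h to the 72 and 96 h arrays Cy3 rose by 1.17 on the log2 scale and the reference, Cy5, by 2.30, so the lower ratio came with a brighter reference. Cy3 was saturated on 3 arrays, and its spots carried an outlier mark from the image program on 5 arrays. Z00002955-1, the latest by share (-15.2% at 48 h), read 3.12 and 2.43 at 0 h, 2.95 at 48 h and 1.49, 1.90 and 1.46 at 72 and 96 h. Its 0 h arrays had an SD of 0.49 (n = 2), so its share at 48 h is loosely set.

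In the other 2 of these 4, membership rested on 1 array. Z00053224-1 read -1.42 and -1.32 at 0 h, -1.34 after 48 h, -1.83 and -5.23 after 72 h and -1.66 after 96 h. Z00071076-1 read 0.02 and -0.15 at 0 h, 0.03 after 48 h, -0.10 and -3.19 after 72 h and 0.10 after 96 h, and was also the member nearest to the 2-fold limit (late fall -1.0001). On the second 72 h array their Cy3 intensities were 27.2 and 28.4, against 244 to 379 and 184 to 359 on the other 11 arrays. The spots there were marked as outliers and not well above background. Without that array 3 members no longer met the rule and 55 further probes did.

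The 2-fold and 24 h limits of the rule lay in a continuous range of values. Next to the 2-fold limit, Z00035264-1 had a late fall of -0.9997 and stayed outside. At the 24 h limit, Z00063711-1 stayed outside with -0.30 at 24 h and a late fall of -1.48. At 12 h, Z00030507-1 was the lowest member with -0.41, and Z00005973-1 was the nearest probe outside with -0.70. Z00005973-1 also missed the 24 h limit, with -1.12 at 24 h and a late fall of -1.50. The 12 h limit removed no probe by itself. All 98 probes with a late fall of at least 2-fold that missed it also missed the 24 h limit.

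A smaller group of members was higher at 12 h before it declined. At 12 h, 16 members (6.37%) stood at least 0.5 above 0 h, against 1.65% of the probes that met the background conditions. All 16 were above 0 h at 6 h too, by 0.14 to 0.80, and at 24 h they lay between -0.26 and 0.58. Z00025932-1 measured 2.15 and 2.17 at 0 h, 2.41 after 3 h, 2.80 and 2.95 after 6 h, 3.56 after 12 h, 2.45 and 2.23 after 24 h, 1.15 after 48 h, 1.33 and 0.79 after 72 h and 0.66 after 96 h. Z00066762-1 followed a similar course, with 2.05 and 2.10 at 0 h, 2.15 after 3 h, 2.73 and 3.02 after 6 h, 3.22 after 12 h, 2.05 and 2.30 after 24 h, 1.01 after 48 h, 0.24 and 0.32 after 72 h and -0.08 after 96 h. In both, the 12 h array was the highest of the 12, and the 24 h arrays were back near the controls. They were the 2 members that stood 2-fold above 0 h at 12 h. Of the 16, 13 were called lower at 48 h against 3 and 6 h. The 12 h level rests on 1 array and entered the rule, so the rise was not tested. None of the 16 shared letters with another member.

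Between 3 and 6 h, also outside the rule, no member was called changed. In limma 0 members were lower and 0 higher at 6 h, where 0.012% of all probes were called lower and 0% higher. At an unadjusted p under 0.05, 14 were lower and 12 higher. With normexp and an offset of 50, 1 was called lower and 1 higher. The median change was -0.03 and the median SE 0.11. Both times lie within the first day of image analysis.

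From 72 to 96 h the decline went on at a slower rate. The 96 h array lay below both 72 h arrays in 192 members and above both in 10, with a median change of -0.21 against 0.0043 over all probes. In limma 15 members were called lower and 0 higher, where 0.635% of all probes were lower and 1.16% higher; at an unadjusted p under 0.05 the counts were 74 and 1. The 15 changes ranged from -0.81 to -0.35 (adjusted p from 0.020 to 0.047). No member was called lower with Cy3 alone, with the replicate number as a block, at an adjusted p under 0.01, or when any of the 8 arrays at 0, 6, 24 and 72 h was left out, while 43 were with an intensity trend or with normexp and an offset of 50. The mean of the 72 and 96 h arrays chose the members, while the difference between these times did not enter the rule, and both times lie within the second day of image analysis.

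One of the 15, Z00038583-1, read 5.03 and 4.98 at 0 h, 3.61 after 48 h, 3.70 and 3.68 after 72 h and 2.88 after 96 h. It held from 48 to 72 h and was lower again at 96 h (change -0.81, SE 0.06, limma adjusted p = 0.020). Another, Z00021618-1, was lower at each later time, with 1.58 and 1.60 at 0 h, 0.79 after 48 h, 0.13 and 0.23 after 72 h and -0.41 after 96 h (change -0.59 after 96 h, SE 0.06, limma adjusted p = 0.022). None of the 15 shared letters with another member, and 12 of them were also called lower at 48 h. Both examples were chosen after their values were seen.

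The arrays at 72 h differed from each other more in the members than elsewhere. The second array lay over 0.3 above the first in 60 members (23.9%), against 2.75% of the other probes that met the background conditions, and over 0.3 below it in 16. In either direction the gap exceeded 0.3 at 72 h in 30.3% of members and 5.56% of probes that met the background conditions, and at 24 h in 15.1% and 4.67%. Of the 60 members, 33 were linked by sequence and the rest were not. Every probe of the set of 15 had a gap of 0.36 to 0.68, those of the set of 9 of 0.67 to 1.54 and those of the set of 3 of 0.64 to 0.76. In the set of 11 the gap was between -0.04 and 0.15, and in the set of 5 between -0.70 and 0.99. Across the 251 members the gap at 24 h and that at 72 h had a Pearson correlation of 0.41 (Spearman 0.33), against 0.14 across the other probes; both gaps are the second array minus the first, and members that share letters are not independent points.

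The sets can be read beside each other on these arrays. The set of 11 had median log2 ratios of 2.85 and 2.85 at 0 h, 2.60 and 2.72 after 24 h, 2.14 after 48 h, 1.49 and 1.54 after 72 h and 1.42 after 96 h. Its levels stepped down at each time from 24 h, and the replicates nearly coincided. The set of 15 stood at 0.49 and 0.61 at 0 h, 0.30 and 0.50 after 24 h, -0.43 after 48 h, -0.97 and -0.45 after 72 h and -0.97 after 96 h. On the second 72 h array this set was back at its 48 h level. The set of 9 stood at 0.83 and 1.12 at 0 h, 0.93 and 1.36 after 24 h, -0.34 after 48 h, -0.79 and 0.38 after 72 h and -0.85 after 96 h. Its second 72 h array lay above its 48 h array, and 4 of its 9 probes were called lower at 48 h, against 15 of 15 and 11 of 11 in the larger sets. The fewer calls did not go with smaller changes. The median change at 48 h against 3 and 6 h was -1.06 in the set of 9, -0.87 in the set of 15 and -0.63 in the set of 11. The gap between the 72 h arrays enters the SE of this test. Without sets, 150 of the 186 unlinked members were called lower at 48 h (80.6%).

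Few members with the widest gaps were called at 48 h. In 11 members the second 72 h array was more than 1 above the first, and 1 of the 11 was called at 48 h although their changes of -1.95 to -1.08 were larger than the median of all members. Their median difference from 0 h was -1.77 on the first 72 h array, -0.24 on the second and -1.82 at 96 h. The 44 uncalled members had a median SE of 0.27, against 0.087 in the called ones, and a median change of -0.69; 11 of them were at least 2-fold lower. Leaving out either 72 h array raised the calls at 48 h to 217. The 72 h arrays help to set the SE of each probe, so a wide gap there by itself makes a call less likely. With 1 of them left out, 72 h adds nothing to the spread. Both such fits of the 48 h comparison are therefore the same and cannot tell the 72 h arrays apart. The part of the second 72 h sample or array in these values was not tested.

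In most members the difference lay in the sample channel. In Cy3 alone the late fall had a median of -1.49, while Cy5 moved by -0.21. A total of 250 of the 251 were lower in Cy3, 222 of them at least 2-fold, and the exception was Z00031151-1, described above. The reference moved in some other members too, in either direction. Cy3 changed by -0.31 and Cy5 by 0.82 in Z00030050-1, and by -0.53 and 0.56 in Z00030507-1. In Z00003616-1 the changes were -2.90 in Cy3 and -1.59 in Cy5, and in Z00023836-1 they were -3.13 and -1.36. On all 12 arrays 249 members were well above background in Cy3, so low signal touched only the 2 probes named above. Cy3 was saturated on some array in 3 members (Z00031151-1 is one of them), where the ratio can read too low.

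The probes outside the members whose course was most like the members' mean, over 12 arrays, were Z00034264-1 (Pearson r = 0.998), Z00037863-1 (r = 0.994) and Z00011526-1 (r = 0.993). Their late falls of -0.97, -0.99 and -0.63 were short of the 2-fold limit. Z00034264-1 measured 1.65 and 1.66 at 0 h, 1.61 after 3 h, 1.63 and 1.63 after 6 h, 1.67 after 12 h, 1.57 and 1.59 after 24 h, 1.00 after 48 h, 0.71 and 0.77 after 72 h and 0.59 after 96 h. It shows the course with little scatter between replicates.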

How the data were processed

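RNA was hybridised to 12 two-colour arrays. Per the file headers, the deposited scanner files hold intensity values made with Agilent Feature Extraction 7.5.1, whose processed signals are background-subtracted and dye-normalized; the deposited series table holds log10 values that the authors processed further, and served as an alternative after conversion to log2. Spots of 1 probe were averaged as log2 ratios of processed signals, sample over reference. limma 3.58.1 (R 4.3.3) was fitted to all 12 arrays in 8 time groups, with 4 residual degrees of freedom, on 41754 probes, after removal of 252 with Cy3 well above background on fewer than 2 arrays, with Benjamini-Hochberg adjustment over all of them. The script was tested on simulated data. The number of arrays limits the precision. Across arrays the median background-subtracted signal was 97.0 to 221 in Cy3 and 229 to 429 in Cy5, with 93.4% to 99.8% of the probes in Cy3 passing the program's background test. Dyes were not swapped, so a fold bias of a dye that varied between arrays would remain in the differences.

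Members and lists were chosen with earlier results of these data known. Named probes are the 8 members with the deepest late fall, the 3 largest and 3 smallest shares at 48 h among called members, those next to each limit, and the 3 non-members most like the mean course; further names were chosen after their values were seen. Alternatives were another background correction or channel, median centring, no filter, other thresholds, array weights, an intensity trend, a replicate block and leaving out each array. Replicate numbers were not taken to pair samples: over all probes fitted, 6 correlations of same-numbered deviations ran from -0.016 to 0.16. Across the members alone the gaps at 24 and 72 h had a Pearson correlation of 0.41. Gene lists, cell type markers and the check of Sox2 and Pou5f1 need gene names and were not run.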

Additional observations from a re-analysis of the deposited data

How the results depend on the processing

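The members chosen numbered 179 to 364 under another scale, channel or centring, with 170 to 247 of the 251 kept, and 208 to 303 when an array was left out. The median share at 48 h stayed between 57.3% and 62.0% in every alternative run. The 3, 6, 12 and 24 h arrays do not enter this share, so leaving them out could not move it. Of 251 members, the count called lower at 48 h was 181 to 239 in the alternatives, apart from 61 when a change of at least 2-fold was also required and 142 at an adjusted p under 0.01; leaving out each array gave 181 to 217, the replicate block 201, and 1 member was called higher with Cy3 alone. Leaving out the single 12 or 96 h array could not change the count called lower at 48 h. Within the 0, 24 and 72 h pairs, leaving out one array or the other gives the same fit of this comparison. In these data 6 h against 3 h gave 1 lower and 1 higher with normexp and an offset of 50. For 96 h against 72 h, 0 members were called lower with Cy3 alone, at an adjusted p under 0.01, with a 2-fold limit and with the replicate block, and 43 with an intensity trend and 43 with normexp and an offset of 50, which also called 1 higher. Leaving out an array gave 0 to 15 lower and 0 to 1 higher there. The cause was not tested. The change at 48 h of each of the 14 named members kept its direction in all 21 alternatives, and 29 of these values missed the threshold, all in the 5 members for which this is stated above. Several of these alternatives left the change itself as it was. They were array weights, the intensity trend, no filter and leaving out a 0, 12, 24, 72 or 96 h array. There the direction could not turn. The letters shared by 16 in place of 20, and the share without linked members, were added after seeing the data. Leaving out the single 12 h array leaves the rule undefined, and leaving out the 48 h array leaves no 48 h comparison, so neither was run. Signal over background limits 2 members at 72 h.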
